A study of Rattus norvegicus with 8 samples.

Results

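The perichondral zone of the rat femur growth plate was compared with its reserve zone on 4 of the 8 arrays of the study, chosen by the zone named in each array's title. The growth plate is the cartilage layer in which a long bone lengthens. Each zone had 1 array from rats 42 days old and 1 from rats 46 days old, and each array held RNA pooled from 3 rats. The other 4 arrays, of the proliferative and hypertrophic zones at the same ages, entered the fit only to estimate the spread between arrays. The labels name no strain, sex or treatment, and neither the dissection of the zones nor any sharing of rats between pools is given in the sources used here. The 2 arrays of a zone differ in age as well as in pool, so n = 2 throughout and the p-values measure the spread between such pools.

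The reserve zone, also called the resting zone, lies at the epiphyseal end of the plate, next to the bone and marrow of the epiphysis. It holds small, slowly dividing chondrocytes and skeletal progenitors, which supply the columns of the proliferative zone. The perichondrium is the fibrous sheath around the cartilage, and its inner layer can form chondrocytes and osteoblasts. It is also a source of secreted signals for the plate. Bone morphogenetic proteins (BMPs) and Wnt proteins drive chondrocyte maturation, and secreted antagonists hold them in check.

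In the perichondral RNA, transcripts of white blood cells, red cell precursors and osteoclasts lay far below those in the reserve RNA, and several bone matrix genes also lay lower. Type X collagen, periostin, the adhesion molecule Ncam1 and several secreted BMP and Wnt antagonists lay above. Most of the antagonists measured had low signal in both zones. Only 5 of 12 for BMPs and 2 of 9 for Wnt proteins had a zone mean above the yardstick given below. No probe set passed the test in either direction. With limma and Benjamini-Hochberg adjustment over 31042 probe sets, 0 (0.0%) had an adjusted p below 0.05, and the smallest adjusted p was 0.251. An unadjusted p below 0.05 was reached by 1164 probe sets, 492 higher and 672 lower in the perichondral zone. With age as a replicate block 3 probe sets passed, all lower (0.00966%), for S100a9, Mmp13 and Mmp9.

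Levels are given as log2(intensity + 16) after quantile normalization of the arrays, and differences as perichondral minus reserve on that scale, which understates changes of dim genes. A level of 9.68 was taken as a yardstick for low signal, because 95% of the values of 34 genes of other organs, such as liver and pituitary, lay below it. Signs of list medians are fragile at this size: of 41 lists, 29 changed the sign of their median under at least one alternative. Of 14217 genes, each read from its brightest probe set, 3439 had a zone mean above this level in at least one of these zones. The median standard error of a difference was 1.05, and the median 95% interval reached 2.22 to either side. The ratio of 3′ to 5′ Gapdh signal, which rises as RNA is degraded or cut short in amplification, was 4.47 and 3.78 on the perichondral arrays and 8.15 and 3.96 on the reserve arrays. The same ratio for actin was 1.64 and 0.557 on the perichondral arrays and 4.65 and 2.32 on the reserve arrays, which it separated at both ages. For hexokinase the ratio was 1.82 and 0.703 against 2.38 and 0.541, and the zones overlapped. The part of RNA quality in the results was not tested. Because the tissue was measured in bulk, fewer cells of a type and less RNA per cell cannot be told apart.

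The 2 perichondral arrays lay above both reserve arrays for 2378 genes (16.7%) and below both for 2617 genes (18.4%). These shares are the background for each count of non-overlapping genes given for a gene list. Across all genes the difference at 42 days followed the difference at 46 days only weakly, with r = 0.0864 and the same sign in 53.3%. Among the 3439 genes above the other-organ level in the higher zone r was 0.403, with the same sign in 62.6%. These genes were picked by zone means of the arrays that give the differences, which can itself raise r. The value therefore does not show that brighter genes agreed better between the ages. Among the 2844 brightest genes r was 0.241, with the same sign in 57.1%. Genes are not independent replicates, and the values serve only to describe how alike the 2 ages were.

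Genes of innate immune cells were among those with the smallest p. S100a9, a subunit of the calcium-binding protein calprotectin that fills neutrophils, measured 9.63 at 42 days and 7.89 at 46 days in the perichondral zone. In the reserve zone it measured 13.34 and 13.56. The reserve arrays agreed closely and lay far above both perichondral arrays, with a difference of -4.69 ± 0.74 (SE), a 25.8-fold lower level and a limma adjusted p of 0.251. With age as a replicate block the limma adjusted p was 0.0233. Its partner subunit S100a8 measured 9.20 and 4.49 against 13.56 and 13.60, a difference of -6.74 that was -4.39 without the 46-day perichondral array.

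Collagen-degrading enzymes stood beside the neutrophil genes. Mmp13, the collagenase of hypertrophic cartilage and bone, measured 12.08 and 9.77 in the perichondral zone and 14.75 and 14.73 in the reserve zone. The zones were 14.1-fold apart, a difference of -3.81 ± 0.66 (SE; limma adjusted p = 0.276, and 0.0233 with age as a replicate block). Mmp9, the gelatinase of osteoclasts and neutrophils, measured 9.04 and 5.36 against 13.30 and 12.09. Its difference of -5.50 ± 0.93 (SE) had a limma adjusted p of 0.276, which was 0.0379 with the replicate block and 0.0276 without the 42-day perichondral array. A second Mmp9 probe set gave -3.08. The proteins act on overlapping substrates, and for both the 46-day perichondral array was the lowest of the 4.

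**Figure D1:**
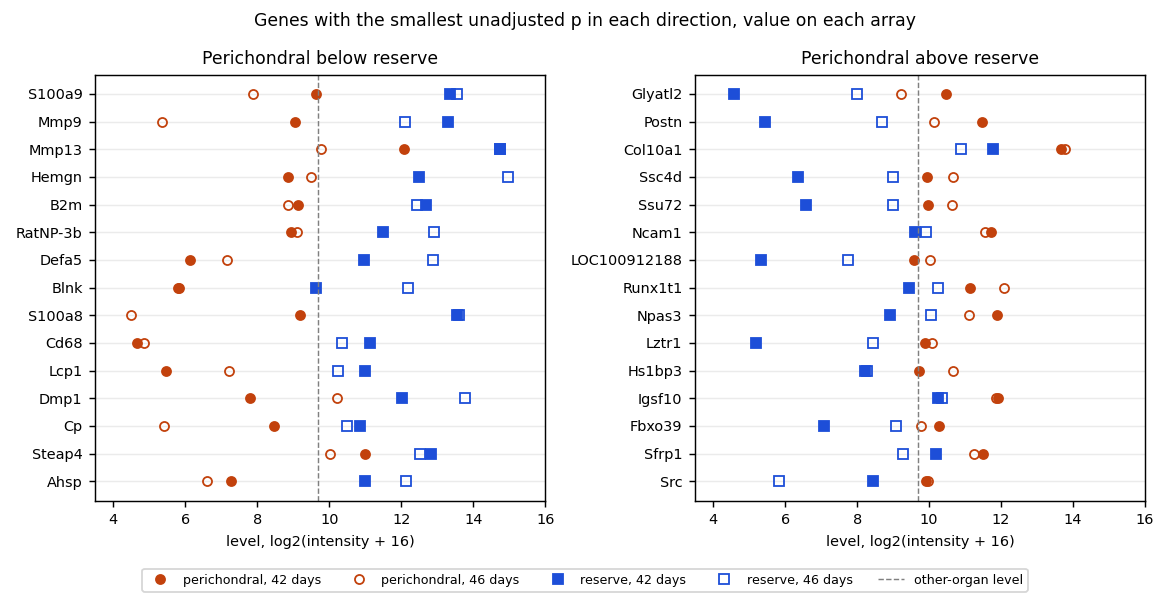
Level on each array, in log2(intensity + 16), of the 15 genes in each direction with the smallest unadjusted p among non-overlapping genes above the other-organ level (dashed line, 9.68). Circles are perichondral and squares reserve arrays, filled at 42 days and open at 46 days; for S100a9 the squares sit at 13.34 and 13.56 and the circles at 9.63 and 7.89, while for Col10a1 the circles lie at 13.66 and 13.78, above both squares.

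The start regions of 3 genes that carry these differences are shown because members of the AP-1 and RUNX factor families are known regulators of collagenase and hypertrophic genes. Each line gives the 250 bases before the gene's start in RefSeq (rat build GRCr8), 5′ to 3′. S100a9 lies at chr2:178490623-178490872 on the minus strand, Mmp13 at chr8:12782579-12782828 on the plus strand and Col10a1, the collagen on the other side of the comparison, at chr20:39737286-39737535 on the plus strand. Capitals mark matches, on either strand, to the AP-1 motif TGANTCA, the RUNX motif TGTGGT and the TATA motif TATAAA.
S100a9: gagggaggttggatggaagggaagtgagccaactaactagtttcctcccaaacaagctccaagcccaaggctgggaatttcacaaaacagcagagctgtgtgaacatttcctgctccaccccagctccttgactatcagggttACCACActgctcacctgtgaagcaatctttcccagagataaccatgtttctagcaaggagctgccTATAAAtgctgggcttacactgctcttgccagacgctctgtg
Mmp13: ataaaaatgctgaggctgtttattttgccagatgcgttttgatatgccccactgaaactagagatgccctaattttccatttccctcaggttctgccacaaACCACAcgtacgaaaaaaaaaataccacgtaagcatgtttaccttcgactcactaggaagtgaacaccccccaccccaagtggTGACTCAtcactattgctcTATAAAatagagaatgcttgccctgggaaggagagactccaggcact
Col10a1: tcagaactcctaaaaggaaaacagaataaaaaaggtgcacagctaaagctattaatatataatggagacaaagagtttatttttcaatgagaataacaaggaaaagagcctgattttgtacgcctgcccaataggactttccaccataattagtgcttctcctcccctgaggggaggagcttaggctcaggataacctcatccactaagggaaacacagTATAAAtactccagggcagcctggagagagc
The Mmp13 window held TGACTCA from 66 to 60 bases before the start, ACCACA, the reverse complement of the RUNX motif, from 149 to 144, and TATAAA from 47 to 42. The S100a9 window held ACCACA from 107 to 102 and TATAAA from 42 to 37, with no match to the AP-1 letters. Col10a1 had TATAAA alone, from 31 to 26. Of 33469 such windows, 6.34% held the AP-1 letters, 14.5% the RUNX letters and 12.9% the TATA letters. A match describes the sequence and does not show that a factor binds there.

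Other genes with immune roles had the same arrangement of arrays. Of these, B2m is not a marker of white cells. B2m, the light chain of class I major histocompatibility molecules, measured 9.14 and 8.85 in the perichondral zone and 12.68 and 12.44 in the reserve zone. The 4 values split cleanly, by -3.56 ± 0.70 (SE; 11.8-fold lower; limma adjusted p = 0.493), and a second probe set gave -2.25. Cd68, a lysosomal protein of macrophages and osteoclasts, measured 4.66 and 4.85 against 11.13 and 10.35. Both perichondral values lay under the other-organ level. Blnk, an adaptor of B cell receptor signalling, measured 5.81 and 5.79 against 9.62 and 12.19, and Lcp1, the actin-bundling plastin of white cells, 5.47 and 7.22 against 10.99 and 10.25. The defensins RatNP-3b and Defa5, antimicrobial peptides of neutrophil granules and of gut, belong to a family of near-identical genes, so their probe sets may read relatives. RatNP-3b differed by -3.18 and Defa5 by -5.28. Apart from the genes whose value is given, and from Hemgn (0.493), RatNP-3b (0.674) and Defa5 (0.878), every gene named here had a limma adjusted p of 1.

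Of 24 measured leukocyte and marrow markers, 12 lay lower without overlap and 0 higher. The list's median difference was -1.83, against -0.05 over all genes, and it was -1.56 at 42 days and -1.90 at 46 days. By zone mean, 0 members lay above the other-organ level in the perichondral zone and 8 did in the reserve zone. Their summed intensity was 6162 and 4377 on the perichondral arrays and 53465 and 49410 on the reserve arrays. Lyz2, the lysozyme of macrophages and neutrophils, measured 10.62 and 6.07 against 12.54 and 13.30, a difference of -4.57 that was -2.30 without the 46-day perichondral array. Fcer1g, the common signalling chain of Fc receptors, measured 8.35 and 6.20 against 12.33 and 10.92.

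Red cell precursors differed in the same direction. Of 13 erythroid markers 10 lay lower without overlap, 0 higher, and the median was -1.55. Hemgn, a nuclear protein of blood progenitors, measured 8.85 and 9.49 in the perichondral zone and 12.48 and 14.96 in the reserve zone. Ahsp, the chaperone of alpha globin, measured 7.28 and 6.59 against 10.99 and 12.14. For both genes the 46-day reserve array was the highest. Slc25a37, the mitochondrial iron importer of erythroblasts, measured 8.43 and 9.89 against 11.06 and 12.31. Hbb, beta globin itself, was less far apart, at 9.73 and 8.60 against 10.68 and 11.23. The summed erythroid intensity was 11947 and 5938 against 35430 and 57112.

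Osteoclasts, the bone-resorbing cells of the macrophage lineage, gave 7 of 12 markers lower without overlap and 0 higher, with a median of -1.43. Itgb3, a subunit of their vitronectin receptor, measured 8.83 and 7.48 in the perichondral zone and 11.71 and 11.13 in the reserve zone. Ctsk, the cathepsin that digests bone collagen, measured 8.003 and 7.41 against 11.24 and 9.54. Car2, the carbonic anhydrase that supplies acid for resorption, measured 8.56 and 6.03 against 9.80 and 11.60, with a second probe set at -3.64; its difference of -3.41 was -2.15 without the 46-day perichondral array. All 3 were below the other-organ level on both perichondral arrays. Of 16 endothelial markers 5 lay lower and 0 higher, with a median of -0.85 that was -0.45 without the 46-day reserve array. Kdr, the main receptor for vascular endothelial growth factor, measured 9.59 and 9.58 against 11.58 and 11.50, while a dim second probe set gave 0.93.

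**Figure D2:**
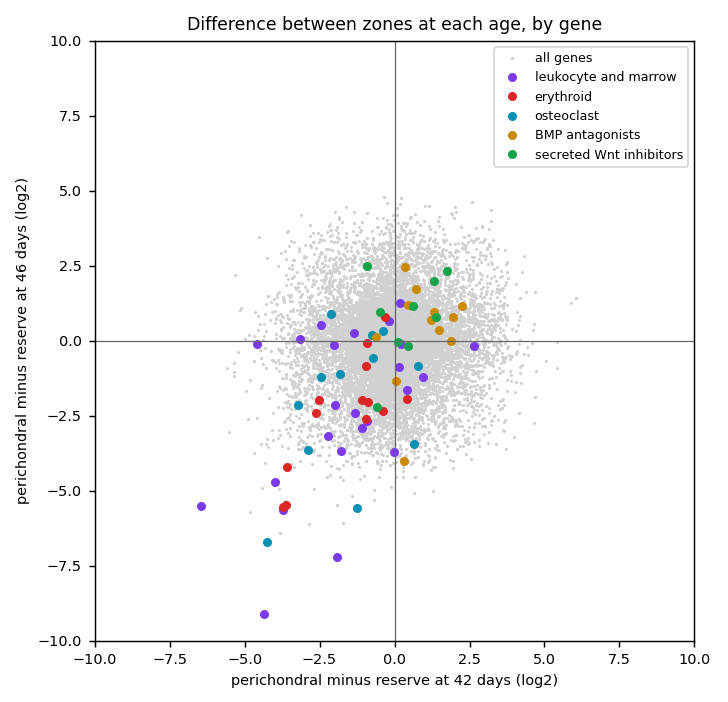
Difference between the zones (perichondral minus reserve, log2) at 42 days on the horizontal axis and at 46 days on the vertical axis, 1 point a gene, with 5 lists coloured over all 14217 genes in grey. Leukocyte, erythroid and osteoclast genes extend into the lower left quadrant, with list medians of -1.83, -1.55 and -1.43, and BMP antagonists and secreted Wnt inhibitors lie mostly at the upper right, with medians of 0.95 and 0.79.

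Bone matrix genes were also lower on the perichondral arrays. Of 16 osteoblast and bone genes 8 lay lower without overlap and 1 higher, with a median of -0.56 and nearly the same value at 42 days (-0.65) and 46 days (-0.60). Dmp1, the mineral-binding protein of osteocytes, measured 7.80 and 10.22 in the perichondral zone and 12.01 and 13.76 in the reserve zone. Bglap, osteocalcin, measured 5.65 and 6.20 against 9.30 and 11.54, and Mepe, an osteocyte phosphoglycoprotein, 7.90 and 8.65 against 9.78 and 11.29. Each of these osteocyte and osteoblast genes was higher at 46 days in both zones. Ibsp, bone sialoprotein, measured 12.60 and 13.42 against 14.52 and 14.33. The one gene that lay higher was Sost, the osteocyte Wnt inhibitor, which was below the other-organ level on all 4 arrays, at 8.22 and 8.73 against 6.48 and 6.39. The leukocyte, erythroid and osteoclast markers lay lower on the same arrays, and their part in the bone and protease results was not tested.

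Genes of hypertrophic chondrocytes split. Of 17 genes 8 lay lower without overlap and 2 higher, with a median of -0.77. Several of them, Mmp9, Dmp1 and Ibsp among them, also stand in the bone or osteoclast lists. Mmp13 stands in neither of those lists. Without the shared genes 12 remained, 4 lower and 2 higher, with a median of -0.43, a comparison chosen after the data were seen. Col10a1, the collagen that defines hypertrophic cartilage, went the other way, at 13.66 and 13.78 in the perichondral zone against 11.78 and 10.88 in the reserve zone. The arrays of each zone lay within 1 log2 unit of each other, and the difference was 2.39 ± 0.72 (SE; 5.23-fold; limma adjusted p = 1, and 0.531 with age as a replicate block). Tnfrsf11b, osteoprotegerin, the decoy receptor that restrains osteoclast formation, measured 10.81 and 10.70 against 10.09 and 9.90. Ihh, the hedgehog ligand of prehypertrophic cells, was below the other-organ level on all 4 arrays, at 5.18 and 5.99 against 5.62 and 5.72.

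Cp, the copper oxidase ceruloplasmin, was among the 15 lower genes with the smallest p, at 8.45 and 5.42 against 10.84 and 10.48, with other probe sets at -1.11 and -1.60. Its difference of -3.72 was -2.23 without the 46-day perichondral array. Steap4, a metalloreductase, measured 10.99 and 10.01 against 12.82 and 12.52. Serpine2, an inhibitor of thrombin and plasminogen activators, measured 11.09 and 9.30 against 12.50 and 12.18, a difference of -2.15 that was -1.26 without the 46-day perichondral array. In each of these 3 the reserve arrays lay within a narrow range and the 46-day perichondral array was lowest. Across 34 matrix proteases and inhibitors 9 lay lower and 6 higher, with a median of -0.53 that was 0.03 without the 42-day reserve array.

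Among the genes higher in the perichondral RNA were secreted and membrane proteins of fibrous and skeletal tissue. Postn, periostin, a matricellular protein of periosteum, measured 11.48 and 10.12 in the perichondral zone and 5.44 and 8.70 in the reserve zone. The reserve arrays differed from each other by more than the perichondral ones, and the difference was 3.73 ± 1.12 (SE; 13.3-fold; limma adjusted p = 1), from 2.05 to 5.36 as single arrays were left out. Aspn, asporin, a small leucine-rich proteoglycan that binds collagen and TGF-beta, measured 10.21 and 9.58 against 6.53 and 8.75, with a second probe set at 2.07. Its difference of 2.26 was 1.11 without the 42-day reserve array. Ncam1, the neural cell adhesion molecule, which is also found in condensing mesenchyme, measured 11.72 and 11.57 against 9.62 and 9.93, with dim probe sets at -0.07 and 0.49. Igsf10, a large immunoglobulin-domain protein, measured 11.90 and 11.86 against 10.25 and 10.37. The arrays of a zone agreed within 0.4 for both Ncam1 and Igsf10.

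Other genes of the upper 15 had roles in transcription and signalling. Runx1t1, a corepressor, measured 11.15 and 12.09 in the perichondral zone against 9.44 and 10.24, a difference of 1.78. Of its other probe sets a brighter one gave 1.13, and the others overlapped, at 0.19 and -0.17. Npas3, a transcription factor best known from brain, measured 11.90 and 11.10 against 8.92 and 10.05. Src, the tyrosine kinase, measured 9.91 and 9.97 against 8.45 and 5.83, but another bright probe set of this gene gave -0.76, and the difference of 2.80 was 1.48 without the 46-day reserve array. Lztr1, which targets RAS proteins for degradation, differed by 3.16 on the named probe set and by -2.27 on another, and the first was 1.48 without the 42-day reserve array. Ssu72 (2.52), Ssc4d (2.64), Hs1bp3 (1.93), Fbxo39 (1.94), Glyatl2 (3.56) and LOC100912188 (3.26) completed the set with these differences. Without the 42-day reserve array 5 of them were much smaller: Glyatl2 at 1.81, Ssc4d at 1.28, Ssu72 at 1.27, Fbxo39 at 0.92 and LOC100912188 at 2.00. Dim second probe sets gave 0.27 for Ssu72, 0.32 for Ssc4d and 0.45 for Hs1bp3. The perichondral arrays of these 6 lay near the other-organ level, between 9.22 and 10.66.

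The fibrous tissue list as a whole did not stand apart. Of 43 genes of perichondrium and periosteum 4 lay higher and 3 lower without overlap, with a median of 0.02 that ranged from -0.20 to 0.27 as single arrays were left out. Postn, Aspn, Prrx2 and Col14a1 were the higher ones. Prrx2, a homeobox factor of limb mesenchyme, was dim, at 8.52 and 7.66 against 4.99 and 5.53, and a second probe set gave -0.24. Col14a1 differed by 1.09, and by 0.15 without the 46-day reserve array. Col1a1, the main collagen of bone and fibrous tissue, lay lower, at 15.41 and 13.03 in the perichondral zone against 15.80 and 15.66 in the reserve zone, and Col1a2 measured 15.36 and 14.73 against 15.66 and 16.09. Other probe sets gave -1.54 for Col1a1 and -1.85 for Col1a2. Without the 46-day perichondral array the named ones gave -0.30 and -0.50. Of 10 tendon and ligament genes 3 lay lower and 1 higher, with a median of -0.39 (-0.21 without the 42-day reserve array), and both type I collagen genes are among them.

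The main cartilage genes had high signal in both zones, and their arrays mostly overlapped. Col2a1, the main collagen of cartilage, measured 17.80 and 17.58 in the perichondral zone and 17.58 and 17.40 in the reserve zone, a difference of 0.20 with a 95% interval from -2.44 to 2.84. Of 7 cartilage collagens 1 lay higher, Col27a1 at 10.12 and 10.02 against 9.69 and 9.19, and the median was 0.11, or -0.63 without the 46-day reserve array. Acan, the large aggregating proteoglycan, measured 12.73 and 12.08 against 14.12 and 12.03. Its arrays overlapped, and its difference of -0.66 was 0.37 without the 42-day reserve array. Of 18 proteoglycans and adaptor proteins 1 lay higher, the hyaluronan link protein Hapln3 at 9.04 and 7.58 against 5.999 and 5.96, and 0 lower. Hapln1, the main link protein, measured 16.13 and 16.06 against 16.25 and 16.13.

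Markers of resting chondrocytes, by which the reserve zone could be told, did not separate the zones in its favour. Of 16 genes 3 lay lower without overlap in the perichondral zone and 1 higher, with a median of -0.02 that ranged from -0.52 to 0.25 as single arrays were left out. Ucma, a matrix protein of resting cartilage, measured 15.80 and 14.99 against 15.86 and 14.02. The 3 lower genes had no zone mean above the other-organ level. Sfrp1, listed here as a resting zone Wnt inhibitor, was the one that lay higher in the perichondral zone. Of 29 skeletal stem and progenitor genes 8 lay lower and 5 higher, with a median of -0.42 that was 0.01 without the 46-day perichondral array. Cxcl12, the chemokine of marrow stroma, measured 10.69 and 9.06 against 10.76 and 11.51, with other probe sets at -2.04 and 0.14. Its difference of -1.26 was -0.45 without the 46-day perichondral array. Pdgfrb, a receptor of perivascular cells, measured 10.19 and 10.84 against 9.56 and 9.31, with other probe sets at 0.26 and 0.29. Of 16 chondrocyte transcription factors 3 lay lower and 1 higher. Mef2c, a driver of hypertrophy, measured 12.20 and 12.58 against 13.14 and 13.53, though a second probe set gave -0.02. Its repressor Hdac4 measured 9.90 and 10.59 against 8.10 and 8.78.

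**Figure D3:**
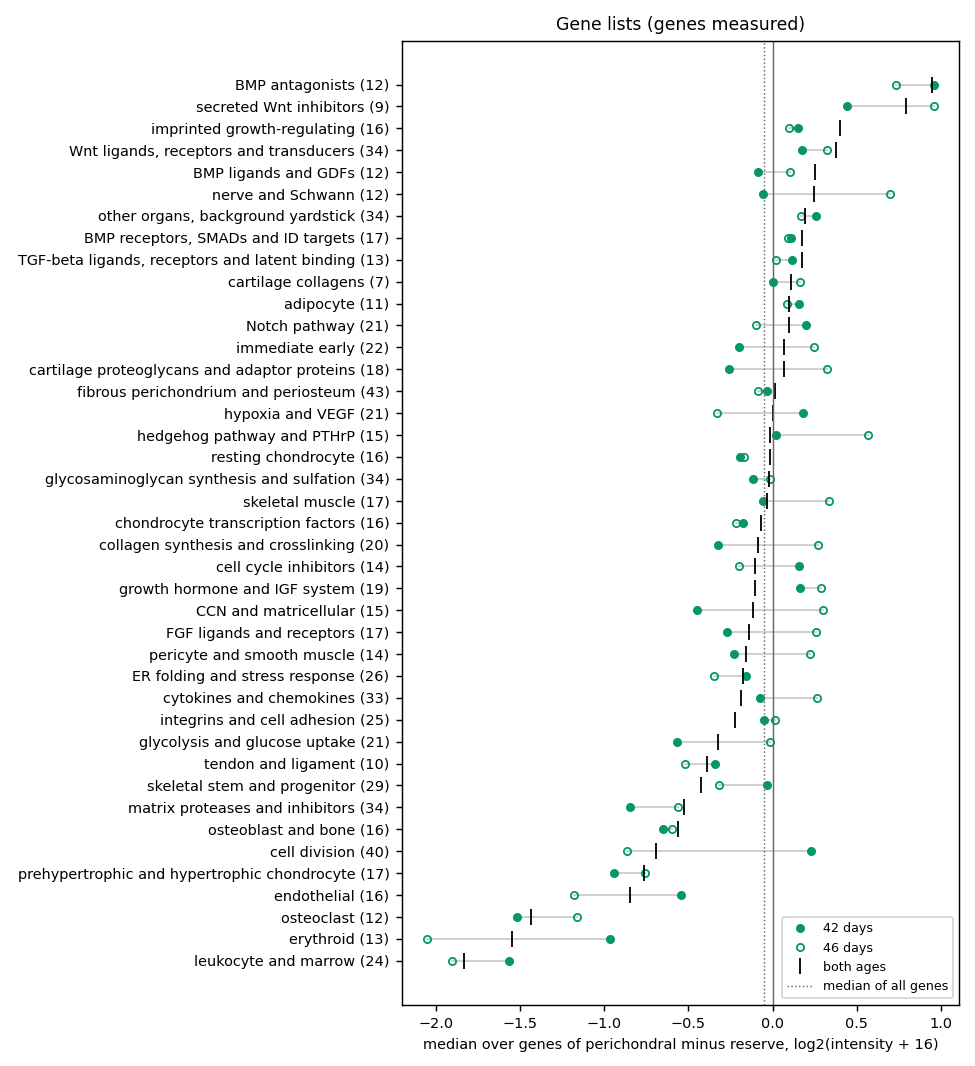
Median over the measured genes of each of 41 lists of the difference perichondral minus reserve, in log2(intensity + 16), at 42 days (filled), at 46 days (open) and over both ages (bars), with the number of genes in brackets. The leukocyte, erythroid and osteoclast lists lie lowest, at -1.83, -1.55 and -1.43, and BMP antagonists highest, at 0.95, while the median of all genes (dotted) is -0.05.

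Secreted inhibitors of BMP signalling lay mostly higher in the perichondral zone, but only 5 of the 12 measured had a zone mean above the other-organ level. Of 12 measured BMP antagonists 7 lay higher without overlap and 0 lower, with a median of 0.95, which was 0.96 at 42 days and 0.73 at 46 days and ranged from 0.64 to 1.15 as single arrays were left out. Nog, noggin, which binds BMP ligands and blocks their receptor sites, measured 11.74 and 10.72 in the perichondral zone and 9.50 and 9.55 in the reserve zone. Its difference was 1.71 ± 0.90 (SE), with a 95% interval from -0.20 to 3.61. Fst, follistatin, an antagonist of activins and some BMPs, measured 10.84 and 11.63 against 9.52 and 10.69, and a second probe set gave 2.88. The named difference of 1.13 was 0.54 without the 42-day reserve array. Twsg1, twisted gastrulation, which acts with chordin, measured 15.17 and 14.26 against 13.69 and 13.92, a difference of 0.91 that was 0.44 without the 42-day perichondral array, with a second probe set at 0.27. Fstl3, a follistatin relative, measured 9.22 and 10.01 against 8.50 and 8.28, but a dim second probe set gave -2.65. The mean of Fstl3 reached the other-organ level in neither zone. The remaining 3, picked out after their values were seen, were below that level on every array. Chrdl1 measured 9.08 and 8.55 against 7.87 and 7.86, Sostdc1 9.18 and 8.04 against 7.24 and 7.26, and Nbl1 7.59 and 7.93 against 7.24 and 5.47. Grem1, gremlin, had the largest negative difference of the 12, at 9.10 and 4.44 against 8.78 and 8.47.

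**Figure D4:**
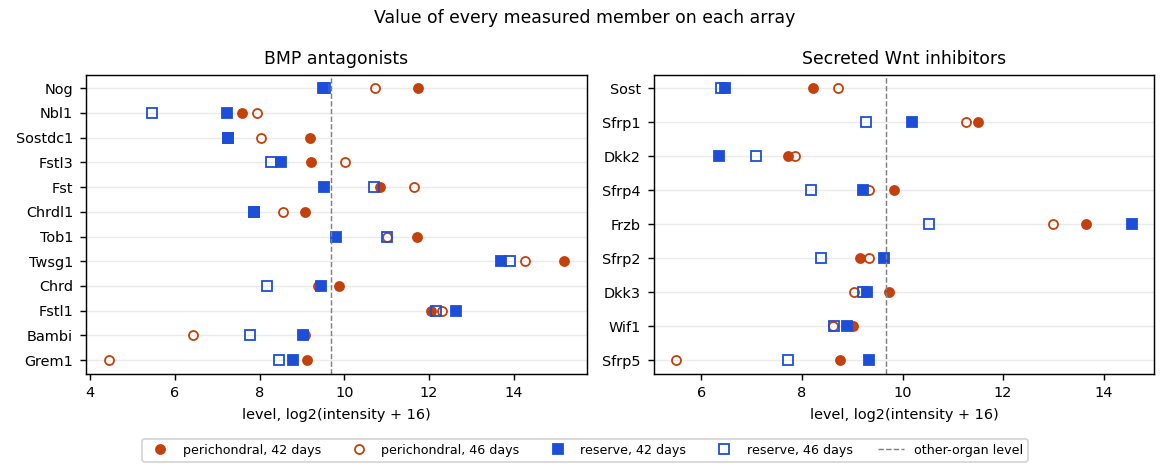
Level on each array, in log2(intensity + 16), of all 12 measured BMP antagonists (left) and all 9 secreted Wnt inhibitors (right), ordered by difference, with circles for perichondral and squares for reserve arrays, filled at 42 and open at 46 days. The circles lie right of both squares for 7 of the 12 and 4 of the 9, and many of these points are left of the other-organ level (dashed, 9.68).

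The ligands, receptors and targets of the BMP pathway lay closer together. Of 12 BMP ligands and growth differentiation factors 1 lay higher and 0 lower, with a median of 0.25, or 0.10 without the 42-day reserve array. Of 17 receptors, SMADs and ID targets 4 lay higher and 3 lower, with a median of 0.18 that was -0.06 with median-centred arrays. Acvr1, a type I receptor, measured 13.67 and 13.67 in the perichondral zone against 12.90 and 13.12. Id2, a target that BMP signalling induces, measured 12.99 and 11.90 against 11.29 and 10.21, although a dim second probe set gave -1.48. Smad7, the inhibitory SMAD, measured 10.70 and 10.66 against 10.65 and 10.36, a difference of 0.18 that was -0.06 with median-centred arrays and 0.03 without the 46-day reserve array. Bmpr1a, another type I receptor, overlapped at 10.09 and 10.99 against 10.74 and 9.86.

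Wnt inhibitors showed a like arrangement, with 4 of 9 higher without overlap and 0 lower. Only 2 of the 9, Sfrp1 and Frzb, had a zone mean above the other-organ level, so of the 4 only Sfrp1 did. The median of the 9 was 0.79, and it was 0.10 without the 46-day reserve array. Sfrp1, which binds Wnt ligands outside the cell, measured 11.49 and 11.26 in the perichondral zone against 10.19 and 9.27, a 3.13-fold difference of 1.65 ± 0.61 (SE; limma adjusted p = 1). Other Sfrp1 probe sets gave 1.11 and 1.35. Sfrp4 measured 9.84 and 9.33 against 9.22 and 8.17, with a dim second probe set at -0.48. Frzb, the frizzled-related inhibitor of articular and resting cartilage, overlapped, at 13.65 and 13.00 against 14.55 and 10.52, with the reserve arrays of the 2 ages far apart. Of 34 Wnt ligands, receptors and transducers 11 lay higher and 6 lower, with a median of 0.37 and 5 members above the other-organ level. That median was 0.06 without the 42-day reserve array. Tcf7, a nuclear partner of beta-catenin, measured 12.34 and 11.77 against 11.71 and 10.53, a difference of 0.94 that was 0.35 without the 46-day reserve array. Tcf7l2 measured 12.34 and 12.65 against 12.17 and 12.23, but 2 other bright probe sets overlapped, at 0.39 and -0.20. Ctnnb1, beta-catenin, overlapped at 16.30 and 16.21 against 16.13 and 16.43.

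In the TGF-beta system 2 of 13 genes lay higher and 1 lower, with a median of 0.17 that was -0.17 without the 42-day perichondral array. Tgfb2, a ligand, measured 12.43 and 12.50 in the perichondral zone against 12.11 and 11.10, a difference of 0.86 that was 0.36 without the 46-day reserve array. Tgfbr1, its type I receptor, measured 10.66 and 9.41 against 11.11 and 11.58 on the named probe set, while another gave 0.94. In the insulin-like growth factor system 5 of 19 lay higher and 4 lower, with a median of -0.10 that was 0.17 without the 42-day perichondral array. On the brightest probe set the receptor Igf1r measured 10.49 and 10.69 against 9.78 and 9.92, and Insr 9.88 and 10.09 against 8.87 and 8.47. The second probe set of each was dim, overlapped and had the opposite sign, at -0.53 for Igf1r and -0.40 for Insr. Irs1, the adaptor below them, measured 10.57 and 11.11 against 11.59 and 11.13. Ghr, the growth hormone receptor, overlapped at 9.36 and 8.17 against 10.79 and 7.31.

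The hedgehog and parathyroid hormone-related protein loop, which times hypertrophy, was thinly measured. Of 15 genes 2 lay higher and 1 lower, with a median of -0.01 (0.60 without the 42-day reserve array) and 3 members above the other-organ level. Pth1r, the receptor, measured 8.65 and 9.42 in the perichondral zone against 9.48 and 8.67, and Gli1, a transcriptional target of hedgehog signalling, 6.73 and 5.98 against 8.79 and 5.75. Both overlapped. Pthlh, Ptch1, Sox9, Runx2 and Tgfbr2 had no probe set with a single gene symbol and were not analysed here. Of 17 fibroblast growth factor genes 4 lay higher and 1 lower, with a median of -0.14 that was 0.59 without the 42-day perichondral array. Fgfr3, the receptor that slows chondrocyte division, measured 12.73 and 12.39 against 13.59 and 12.73, with a dim second probe set at 1.99. Fgfr1 (9.36 and 8.65 against 9.36 and 8.88) and Fgfr2 (10.06 and 10.24 against 10.21 and 10.39) lay close, and their arrays overlapped, although a dim Fgfr2 probe set gave -2.40. In the Notch pathway 5 of 21 lay higher and 3 lower, with a median of 0.10 that was -0.11 without the 42-day reserve array. Notch1 overlapped at 9.62 and 9.21 against 10.15 and 9.53, and a dim second probe set gave 1.83.

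The median difference of cell division genes had opposite signs at the 2 ages, which also differ in pool. Of 40 genes 11 lay lower without overlap in the perichondral zone and 4 higher, with a median of -0.69. That median was 0.23 at 42 days, -0.86 at 46 days and 0.03 without the 46-day reserve array. Top2a, the topoisomerase of dividing cells, measured 8.22 and 8.18 in the perichondral zone against 9.81 and 10.35, and Mki67, the proliferation antigen, 12.22 and 12.51 against 12.83 and 13.94. Pcna, the replication clamp, overlapped at 11.04 and 11.20 against 10.67 and 12.95. Ccnd1, cyclin D1, measured 9.76 and 9.89 against 8.04 and 8.83, but dim probe sets of the gene gave -1.09 and -1.26. Blood cell precursors also divide, and the erythroid list lay lower on the same arrays, with a median of -0.96 at 42 days and -2.05 at 46 days. Its part in the cell division result was not tested.

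Secretion and sulfation genes were mixed. Of 26 genes of protein folding and stress in the endoplasmic reticulum 8 lay lower and 5 higher, with a median of -0.18 that ranged from -0.49 to -0.09 as single arrays were left out. Hsp90b1, a chaperone of secreted proteins, measured 9.84 and 9.06 in the perichondral zone against 10.77 and 10.54. Of 34 genes of glycosaminoglycan synthesis 5 lay lower and 4 higher, with a median of -0.02 that ranged from -0.27 to 0.30 as single arrays were left out. Csgalnact1, which starts chondroitin sulfate chains, measured 12.93 and 12.38 against 11.99 and 11.69, while a second bright probe set overlapped at -0.05. Chsy1, which extends the chains, measured 11.10 and 11.002 against 10.61 and 10.24. Sdc2, a heparan sulfate proteoglycan of the cell surface, measured 13.77 and 13.60 against 13.19 and 12.26 on its brightest probe set, a difference of 0.96, but its other probe sets, also above the other-organ level, overlapped at -0.24 and -0.17. Of 20 genes of collagen synthesis and crosslinking 1 lay lower and 0 higher.

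Markers of other tissues had few members with clear signal. Of 17 skeletal muscle genes 3 lay higher and 2 lower, of 11 adipocyte genes 3 and 1, of 12 nerve and Schwann cell genes 4 and 1, and of 14 pericyte and smooth muscle genes 3 and 4. Only 2 or 3 members of each of these lists lay above the other-organ level in the zone where they were higher. The summed skeletal muscle intensity was 40767 and 42226 on the perichondral arrays and 51333 and 30493 on the reserve arrays. Most of it came from 1 gene, the myosin heavy chain Myh1, with deposited intensities of 35208 and 37988 against 46840 and 26630. Gap43, a growth-associated protein of axons, was among them, at 10.41 and 10.67 in the perichondral zone against 9.30 and 10.15. The yardstick list of 34 genes of other organs had 6 higher and 5 lower, with a median of 0.19 that was -0.10 without the 46-day reserve array.

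**Figure D5:**
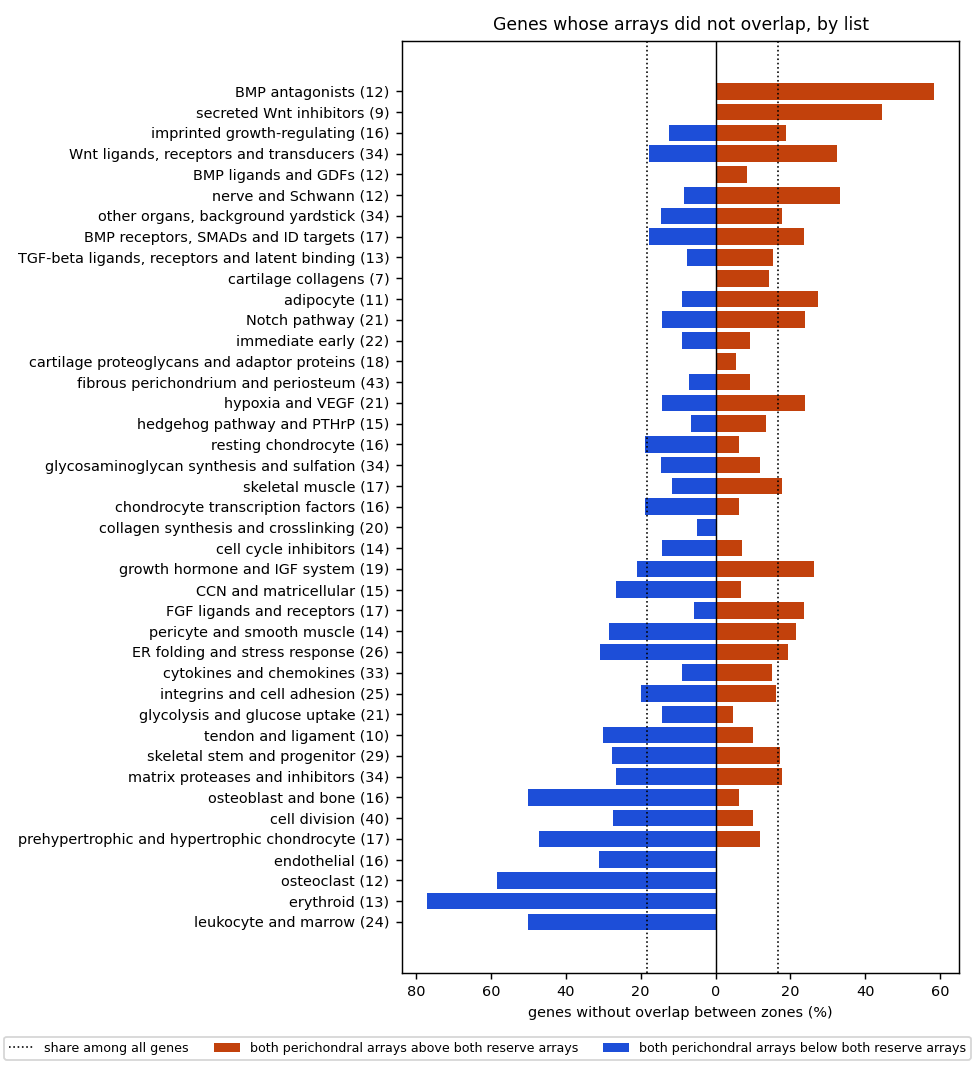
Share of each list's measured genes whose 2 perichondral arrays lay above both reserve arrays (right of 0) or below both (left of 0), in percent, with the shares among all genes dotted (16.7% and 18.4%). Erythroid (10 of 13), osteoclast (7 of 12), leukocyte (12 of 24) and bone (8 of 16) genes reach farthest left, and BMP antagonists (7 of 12) and secreted Wnt inhibitors (4 of 9) farthest right.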

How the data were processed

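RNA from growth plate zones was extracted with RNeasy columns, amplified with the Nugen Ovation method and labelled with biotin, per the labels' protocols. The deposited values are array intensities on a linear scale, and no source used here gives the role of MAS5, GCOS and RMA, which stand in the submitters' processing notes. The deposited columns have a trimmed mean of 500.1 to 500.2 (2% trimmed at each end). Of 31099 probe sets, 57 controls were left out. GEO's platform annotation gave 20826 probe sets 1 symbol, 436 several and 9780 none. The 14217 genes were each read from the probe set with the highest mean.

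Intensities plus 16 were log2-transformed and quantile normalized, because array medians differed by 0.589. limma 3.58.1 in R 4.3.3 fitted 1 mean a zone over 8 arrays, with a trended empirical Bayes variance (4 residual and 12.6 prior degrees of freedom) and Benjamini-Hochberg adjustment over 31042 probe sets, after a check on simulated data. Named genes were the 15 in each direction with the smallest unadjusted p, up to 4 members a list with the largest differences, both without overlap and above the other-organ level, and fixed growth plate genes. Other genes named, mostly further members of these lists, were chosen after their values were seen. Members and lists were chosen with earlier results of these data known. Alternatives were the replicate block (age), these 4 arrays alone, other pseudocounts and normalizations, brighter probe sets, a mean over probe sets and leaving out each array. The number of arrays limits the precision.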

Additional observations from a re-analysis of the deposited data

Results flagged for a closer look

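For 12 results the perichondral minus reserve difference had one sign at 42 days and the other at 46 days, with both sizes above 0.2. With 1 array a zone at each age the change between ages was not tested, and each value is the 46-day difference minus the 42-day difference in log2 units.

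Cell division genes went from 0.23 to -0.86, a change of -1.09. The cartilage proteoglycan median went from -0.26 to 0.32 (0.58), the collagen synthesis median from -0.32 to 0.27 (0.59) and the matricellular median from -0.45 to 0.30 (0.75). The fibroblast growth factor median changed by 0.53, the pericyte median by 0.46 and the immediate early median by 0.44.

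Among single genes Gli1 went from -2.06 to 0.24 (2.30), the growth hormone receptor Ghr from -1.43 to 0.85 (2.28), Bmpr1a from -0.65 to 1.14 (1.79), Pth1r from -0.83 to 0.75 (1.58) and Ihh from -0.44 to 0.26 (0.70). Ihh and Gli1 were below the other-organ level on all 4 arrays.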

How the results depend on the processing

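Of 104 named probe sets, 96 kept their sign under every alternative that gave a value. Most of the 104 were chosen because their arrays did not overlap, so leaving out 1 array could hardly turn their sign. That count therefore does not measure stability. Of 41 list medians, which had no such condition, 12 kept their sign. The lists that kept it were those of leukocytes, erythroid cells, osteoclasts, endothelium, bone, hypertrophic chondrocytes, tendon and ER folding (lower), and BMP ligands, BMP antagonists, Wnt genes and secreted Wnt inhibitors (higher). The count of lower probe sets was 0 in the fit reported, 3 with the replicate block and 9 with the perichondral and reserve arrays only; it ranged from 0 to 1 as single arrays were left out. B2m (limma adjusted p 0.0160), S100a9 (0.0160), Hemgn (0.0365), Defa5 (0.0227) and Ahsp (0.0227) passed with those 4 arrays. The higher count was 0 in every alternative run. Signs turned for Smad7 (-0.063) and Bmpr1a (-0.017) with median-centred arrays and for Ihh (0.035) with no normalization. As single arrays were left out, the difference ranged from -1.71 to 0.37 for Acan, -0.48 to 0.32 for Ihh, -0.45 to 0.36 for Pth1r, -2.47 to 0.60 for Gli1, -0.46 to 0.24 for Fgfr1, -0.21 to 0.69 for Bmpr1a and -2.02 to 1.43 for Ghr. The cause was not tested. Signal over background limits the dim genes.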

Other observations

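With the perichondral and reserve arrays only, 4 of the 9 probe sets that passed carried no single gene name. Their differences were -6.32, -6.13, -5.50 and -3.89, all lower in the perichondral zone. The first of them also passed when either hypertrophic array was left out of the full fit, with limma adjusted p-values of 0.00830 and 0.000962.

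Oxygen-sensing and sugar metabolism genes, not described above, were mixed. Of 21 hypoxia and vascular endothelial growth factor genes 5 lay higher without overlap and 3 lower, with a median of 0.00. Vegfc, a growth factor of lymphatic vessels, measured 10.11 and 10.50 in the perichondral zone against 9.05 and 9.79, and Nrp2, its coreceptor, 11.08 and 10.74 against 11.68 and 11.58. Of 21 glycolysis genes 3 lay lower and 1 higher, with a median of -0.32 that was 0.23 without the 42-day reserve array. Slc16a1, a lactate transporter, measured 10.35 and 9.53 against 10.96 and 11.08, with a dim second probe set at 0.05.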
